A study of Homo sapiens with 4 samples.

Results

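The genes described here are 39 genes of glycolysis and of the response to low oxygen, listed by symbol and all found among the 20263 genes of a count table. They comprise 17 glycolytic enzymes, 4 glucose and lactate transporters, 2 PFKFB regulators of glycolytic flux, 4 genes for HIF factors and their hydroxylases, and 12 hypoxia targets. The cells were MDA-MB-231, an established human breast cancer line of mesenchymal, triple-negative type, grown in medium with 10% serum. One group of 2 libraries came from cells given YW-LF for 24 h, a compound that the series title describes as derived from ribociclib, an inhibitor of CDK4 and CDK6. The other group of 2 libraries was labelled DMSO, the solvent. The labels state no dose. No label states that the 2 libraries of a group were separate cultures, so p-values reflect the spread between libraries, which may be technical.

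Glycolysis splits glucose into pyruvate, and lactate dehydrogenase turns pyruvate into lactate, which leaves the cell through monocarboxylate transporters. Many cancer lines run this route even when oxygen is present. When oxygen is scarce, the transcription factors HIF-1α and HIF-2α escape hydroxylation by the EGLN prolyl hydroxylases, are no longer destroyed, and bind a short DNA element beside their targets. These targets include most glycolytic genes, so enzymes and other hypoxia targets often rise together.

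The libraries held 34774542 to 40218240 counts. Of the 39 members, 38 passed the filter on low counts and each of these had at least 10 counts in all 4 libraries. The carbonic anhydrase gene CA9, a classical hypoxia target, did not pass, with 6 and 0 counts in DMSO and 8 and 12 in YW-LF. Levels below are CPM, counts divided by the library total after scaling by the trimmed mean of M-values (TMM). YW-LF replicate 2 stood furthest from the controls. Its correlation with the DMSO libraries was 0.865 and 0.859 over 13816 genes, against 0.922 and 0.911 for YW-LF replicate 1. The share of counts from mitochondrially encoded genes was 8.68% and 21.7% for DMSO and 3.14% and 6.58% for YW-LF. Markers of the line were present: VIM stood at 2122 to 4154 CPM, CD44 at 400.2 to 569 CPM, KRT18 at 70.3 to 304.1 CPM and AXL at 535 to 1785 CPM, while ESR1 and PGR stayed at or below 1.73 CPM and CDH1 had at most 13 counts. ERBB2 stood at 30.2 to 71.9 CPM. The 4 markers of the line were lower in both YW-LF libraries than in both DMSO libraries, with a summed level of 5525.7 and 6812.9 CPM against 3128.2 and 4980.5 CPM, and their part in the results was not tested. Of 8 markers of leukocytes, endothelium and fibroblasts, CD3E and DCN had 0 counts, and the summed level of the 5 that passed the filter was 158 and 342 CPM in DMSO and 238 and 232 CPM in YW-LF. CD68 made up most of that sum.

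No member passed edgeR's quasi-likelihood test after Benjamini-Hochberg adjustment over all genes (threshold 0.05), and 0% of all genes passed in either direction. At an unadjusted p under 0.05, 2 members were higher (5.26% of 38, against 11.5% of all genes tested) and 4 were lower (10.5%, against 9.01%). DESeq2 called 1 member higher (SLC2A3) and 3 lower (LDHA, PFKFB3 and EGLN3), where it called 5.88% and 4.47% of all genes. With YW-LF replicate 1 left out edgeR called 4 members higher and 12 lower, against 21% and 20.7% of all genes. With YW-LF replicate 2 left out it called 4 and 5, against 10.1% and 10.2%. In these fits the lone treated library is assumed to vary as the controls do. For 4 members both treated libraries lay above both controls (10.5%, against 28% of all genes) and for 13 below them (34.2%, against 27.8%). The median log2 fold change of the 38 members was -0.08, beside 0.06 over all genes tested. The treated libraries also differed from each other. For 19 of 38 members (50%) the 2 YW-LF libraries lay on opposite sides of the DMSO mean, against 32% of all genes. Across members, replicate log2 ratios had an SD of 0.33 in DMSO and 1.16 in YW-LF, beside 0.61 and 1.24 over all genes.

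**Figure D1:**
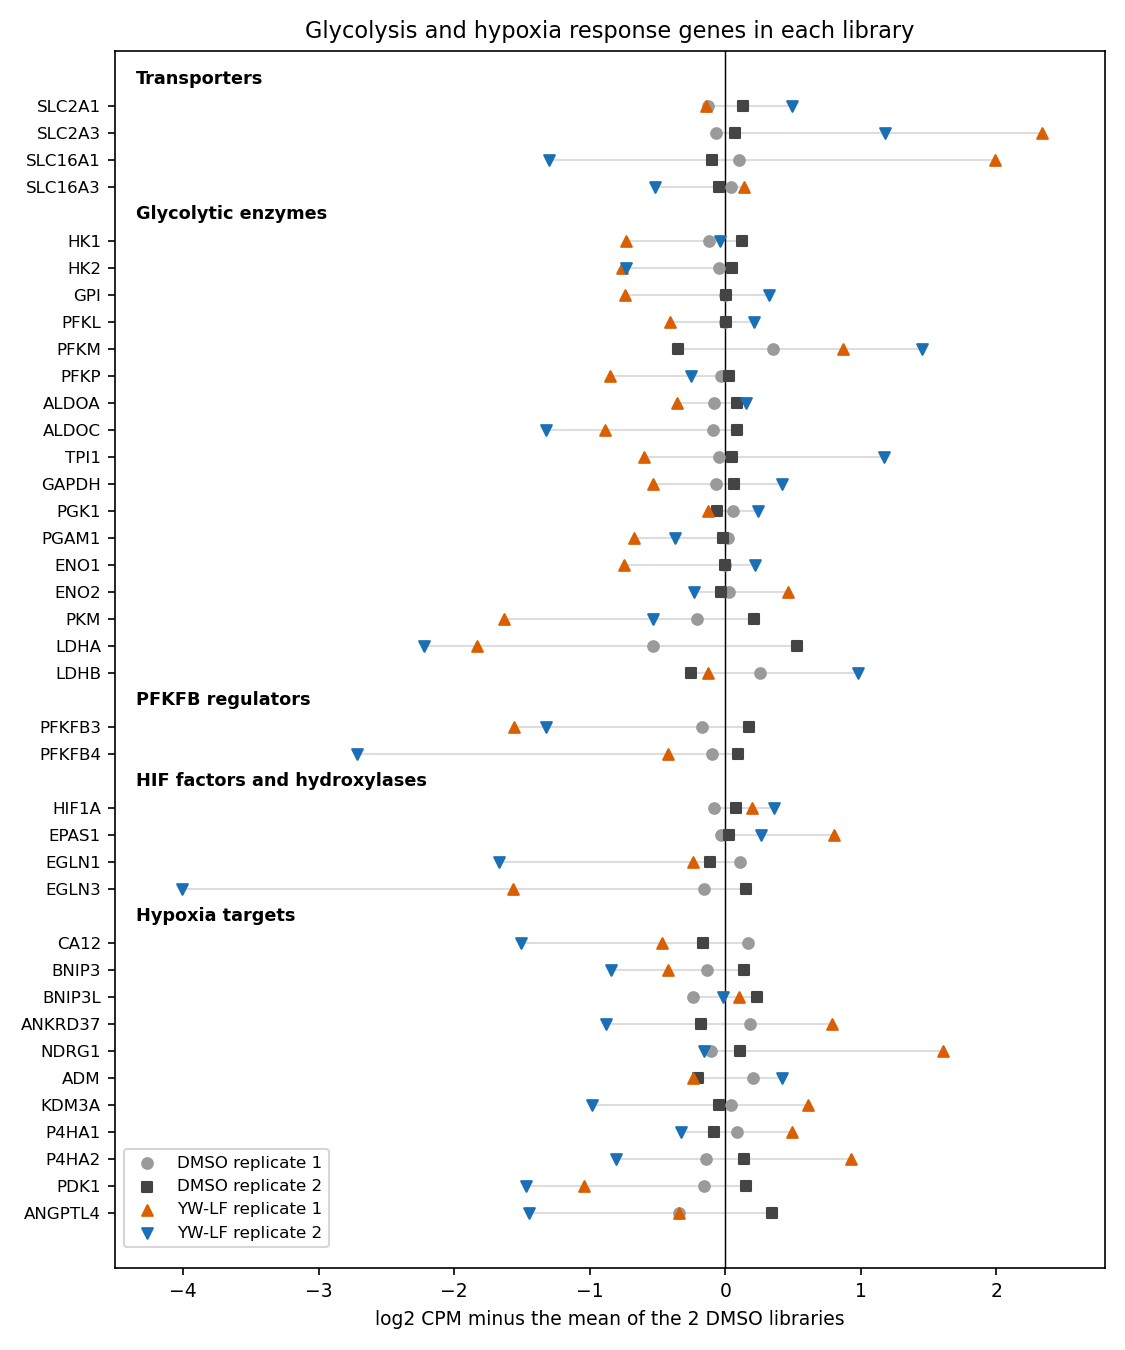
Level of each of the 38 members in each library as log2 CPM minus the mean of the 2 DMSO libraries (x axis), with genes by role on the y axis and 1 symbol per library. The DMSO libraries lie near 0 for most genes. LDHA, PFKFB3, PDK1 and EGLN3 are low and SLC2A3 and PFKM high in both YW-LF libraries, while many enzymes are low only in YW-LF replicate 1 and many targets only in YW-LF replicate 2.

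Among the transporters, the glucose transporter genes differed from each other. SLC2A3 encodes GLUT3, a high-affinity glucose transporter (ENSG00000059804, chromosome 12, 7919230 to 7936275 in GRCh38). It stood at 81.1 and 89.3 CPM in DMSO and at 431 and 193 CPM in YW-LF. Both treated libraries were above both controls, by 3.66-fold in the fit (1.87 on the log2 scale with an SE of 0.50; adjusted p = 0.138 in edgeR and 0.0053 in DESeq2). Leaving out YW-LF replicate 1 gave 1.18 and leaving out YW-LF replicate 2 gave 2.33. SLC2A3 has a near-identical neighbour, SLC2A14, whose reads cannot be told apart with certainty. SLC2A14 had 43 and 56 counts in DMSO and 370 and 102 in YW-LF, far fewer than the 2988 to 21639 counts of SLC2A3. SLC2A1, the gene for GLUT1, was at 153.5 and 184.4 CPM in DMSO and 153 and 235.7 CPM in YW-LF, and the groups overlapped (0.20, SE 0.41, edgeR adjusted p = 0.807). Per kilobase of exon, the ratio of SLC2A3 to SLC2A1 was 0.405 and 0.371 in DMSO and 2.16 and 0.629 in YW-LF.

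The lactate transporters had no common direction. SLC16A1, which encodes MCT1, was at 2.99 and 2.60 CPM in DMSO, and at 11.2 and 1.10 CPM after YW-LF, so the treated libraries lay on either side of the controls (-1.35 with the first treated library left out and 1.99 with the other). SLC16A3, which encodes the lactate exporter MCT4, was at 141 and 132.7 CPM in DMSO and 150.5 and 95.7 CPM in YW-LF, again on both sides (-0.15, SE 0.39).

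Of the 17 enzymes, 6 were lower in both YW-LF libraries than in both DMSO libraries (HK2, PFKP, ALDOC, PGAM1, PKM and LDHA), 1 was higher (PFKM) and 10 overlapped. The share lower was 35.3%, against 27.8% of all genes tested, and the share higher 5.88%, against 28%. The median log2 fold change of the enzymes was -0.12, but 0.15 when YW-LF replicate 1 was left out and -0.69 when YW-LF replicate 2 was. LDHA, the lactate dehydrogenase subunit that favours lactate production, had the lowest p among them (ENSG00000134333, chromosome 11, 18394388 to 18408425). It stood at 434 and 903 CPM in DMSO and at 176 and 134.6 CPM in YW-LF, that is 668 ± 332 against 155 ± 29.2 CPM (mean ± SD, n = 2 each). The controls differed by more than the treated libraries, yet the lower control was still above both. The fitted level was 4.30-fold lower (-2.11 on the log2 scale with an SE of 0.53; adjusted p = 0.130 in edgeR and 0.00123 in DESeq2). Without DMSO replicate 2 the log2 fold change was -1.50.

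LDHB, the subunit that favours pyruvate, did not follow LDHA. It was at 515 and 361 CPM in DMSO and at 393 and 848 CPM in YW-LF, with overlapping groups (0.50, SE 0.54). Per kilobase of exon, LDHA stood at 0.405 and 1.2 times LDHB in DMSO and at 0.215 and 0.0763 times in YW-LF. Both treated ratios were below both control ratios. LDHA and LDHB have 6 and 3 pseudogenes named after them in GENCODE 29, and GAPDH has 62, PGAM1 13 and PKM 5, so part of their counts may depend on how the authors assigned shared reads.

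The kinases at the entry of the route differed. HK2, the inducible hexokinase, was at 128 and 137.6 CPM in DMSO and 78.5 and 79.8 CPM in YW-LF, lower in both treated libraries, which agreed closely with each other (-0.75, SE 0.34, adjusted p = 0.275 in edgeR). HK1, the constitutive hexokinase, overlapped (298 and 353 CPM against 195 and 316.5 CPM). For phosphofructokinase, which commits sugar to glycolysis, PFKM, the muscle-type subunit, was at 60.0 and 36.9 CPM in DMSO and 86.3 and 128 CPM after YW-LF (1.15, SE 0.42, adjusted p = 0.208 in edgeR). PFKP, the platelet-type subunit, was at 385 and 402 CPM in DMSO and 218 and 330.5 CPM in YW-LF (-0.52, SE 0.43), and the liver-type PFKL overlapped. Per kilobase of exon, PFKP was 9.71 and 16.5 times PFKM in DMSO but 3.83 and 3.90 times in YW-LF, and it remained the higher of the 2.

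The abundant enzymes of the lower part of the route showed the split between treated libraries. GAPDH, often used as a reference gene, was at 4867 and 5334 CPM in DMSO, and at 3526 and 6833 CPM after YW-LF (0.02, SE 0.69). Its sign turned with upper quartile scaling (-0.04). ENO1, the main enolase, was at 1696 and 1698 CPM in DMSO against 1008 and 1975 CPM. TPI1, triose phosphate isomerase, was at 605 and 647 CPM in DMSO against 412 and 1407 CPM. In each of these the first YW-LF library was below and the second above both controls. PKM, the pyruvate kinase of most tissues and tumours, was low in both (1796 and 2408 CPM against 671 and 1439 CPM, 1.99-fold lower, edgeR adjusted p = 0.393). On the log2 scale PKM was at -1.66 with YW-LF replicate 2 left out and at -0.55 with YW-LF replicate 1 left out. PGAM1, phosphoglycerate mutase, was at 457 and 443.5 CPM against 282 and 349 CPM. ALDOC, a minor aldolase at 6.22 and 7.05 CPM in DMSO, was at 3.54 and 2.62 CPM in YW-LF (-1.10, SE 0.54). HK1, GPI, PFKL, ALDOA, PGK1, ENO2 and LDHB, with TPI1, GAPDH and ENO1, were the 10 whose groups overlapped.

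Both PFKFB genes, whose enzymes make or remove fructose 2,6-bisphosphate, the activator of phosphofructokinase, were lower in both YW-LF libraries. The same held for 27.8% of all genes tested. PFKFB3, the isoform with the strongest kinase activity (ENSG00000170525, chromosome 10, 6144934 to 6254644), was at 42.9 and 54.8 CPM in DMSO and 16.4 and 19.4 CPM in YW-LF. This was 2.73-fold lower (48.8 ± 8.37 against 17.9 ± 2.09 CPM, mean ± SD of 2 libraries each). The log2 difference was -1.45 (SE 0.37, adjusted p = 0.130 in edgeR and 0.0274 in DESeq2). PFKFB4 was at 37.1 and 42.4 CPM in DMSO, and the treated libraries, at 29.6 and 5.99 CPM, differed widely (-1.16, SE 0.71, adjusted p = 0.389 in edgeR). With YW-LF replicate 2 left out PFKFB4 was at -0.44, and with the other treated library left out at -2.73.

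**Figure D2:**
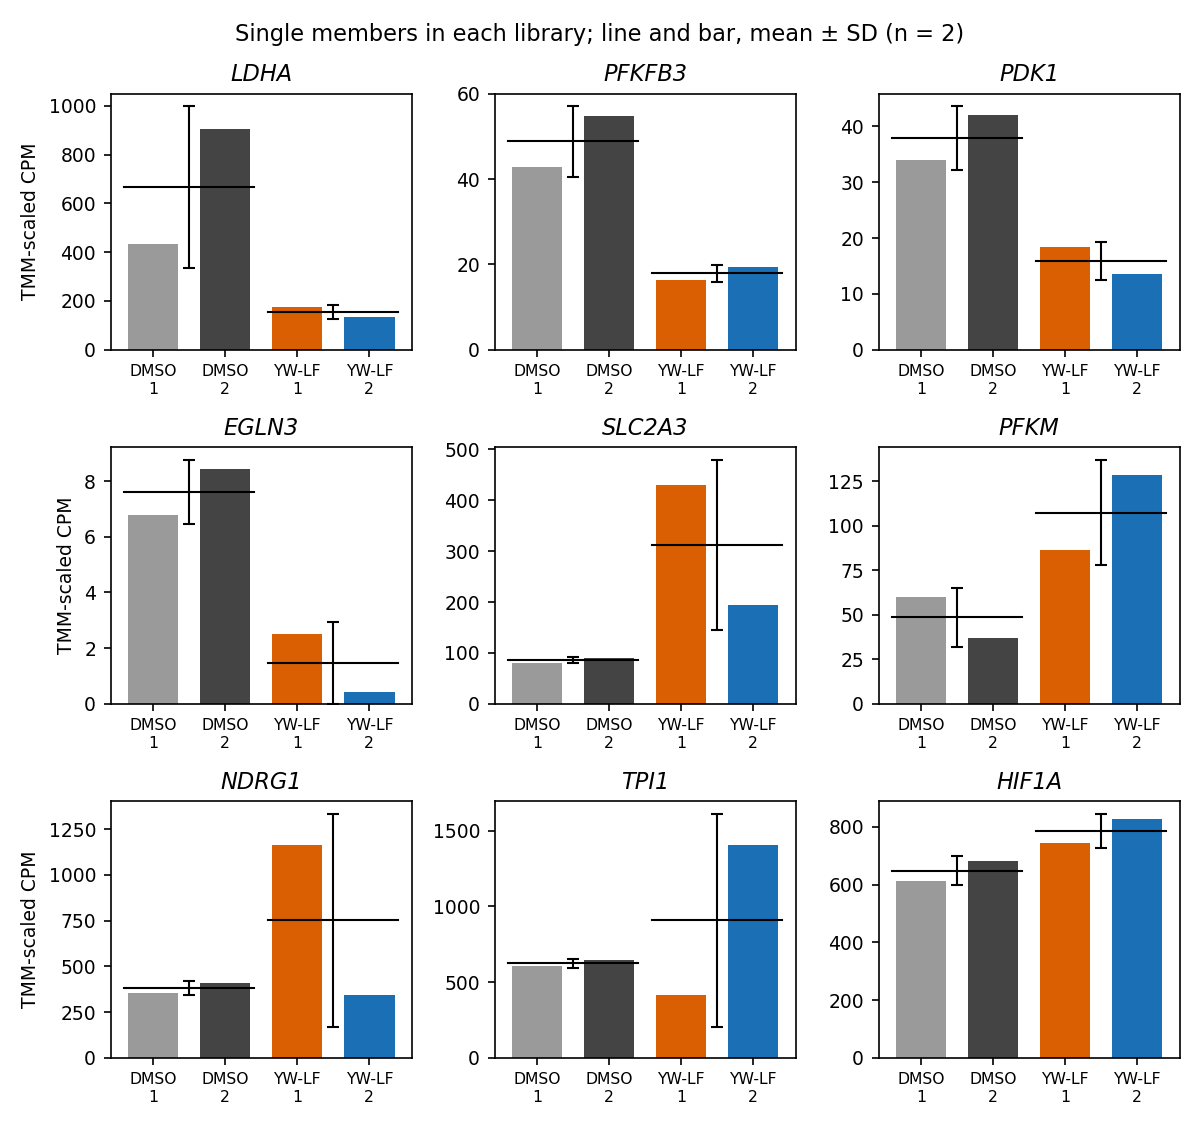
TMM-scaled CPM (y axes, each starting at 0) of 9 members in each of the 4 libraries, with the mean ± SD of each group as line and error bar (n = 2). LDHA, PFKFB3, PDK1 and EGLN3 are lower in both YW-LF libraries, SLC2A3 and PFKM are higher in both, NDRG1 is high in YW-LF replicate 1 only and TPI1 in YW-LF replicate 2 only.

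The HIF genes themselves lay slightly higher in both treated libraries. HIF1A was at 613 and 683 CPM in DMSO and 744 and 828 CPM after YW-LF (0.28, SE 0.45, adjusted p = 0.756 in edgeR). EPAS1, which encodes HIF-2α, was at 53.8 and 56.0 CPM in DMSO and 95.3 and 65.8 CPM after YW-LF (0.55, SE 0.37, adjusted p = 0.425 in edgeR). For both genes the groups did not overlap, and neither passed the test. Of all genes tested, 28% likewise lay above both controls in both treated libraries. HIF-1α is controlled mainly through the stability of the protein, which these data do not measure.

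The hydroxylase genes among the members, EGLN3 and EGLN1, are also hypoxia targets. They lay lower in both YW-LF libraries than in both controls, as did 27.8% of all genes tested. EGLN3 (PHD3, ENSG00000129521, chromosome 14, 33924231 to 34462774) was at 6.78 and 8.43 CPM in DMSO and 2.51 and 0.42 CPM in YW-LF, the last from 13 counts. It was 5.13-fold lower in the fit (-2.36, SE 0.88, adjusted p = 0.210 in edgeR and 0.0355 in DESeq2). The log2 difference was -1.61 when YW-LF replicate 2 was left out and -4.17 when the other treated library was. EGLN1 (PHD2), the main oxygen sensor of the family, was at 80.0 and 68.8 CPM in DMSO, and at 62.6 and 23.2 CPM after YW-LF (-0.79, SE 0.52). Its log2 difference was -1.68 with YW-LF replicate 1 left out and -0.26 with the other treated library left out. EGLN2 and HIF1AN, HIF hydroxylase genes outside the members, did not lie lower. EGLN2 was at 31.2 and 30.4 CPM in DMSO and 30.6 and 103 CPM in YW-LF, with overlapping groups (1.12, SE 0.58). HIF1AN was at 110 and 96.0 CPM against 153 and 143 CPM (0.53, SE 0.35).

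Of the 11 hypoxia targets tested, 3 lay below DMSO in both YW-LF libraries (PDK1, BNIP3 and CA12), 0 above and 8 overlapped, with a median log2 fold change of 0.02. The share below was 27.3%, against 27.8% of all genes tested, and the share above 0%, against 28%. PDK1, the kinase that shuts off pyruvate dehydrogenase (ENSG00000152256, chromosome 2, 172555373 to 172608669), was at 33.9 and 42.0 CPM in DMSO and 18.4 and 13.6 CPM in YW-LF. It was 2.38-fold lower (-1.25, SE 0.39; adjusted p = 0.163 in edgeR and 0.0749 in DESeq2). BNIP3, a mitophagy receptor, was at 235.5 and 285 CPM against 193 and 145 CPM (-0.62, SE 0.40), and its 39 named pseudogenes make its counts less certain. CA12, a membrane carbonic anhydrase, was at 13.9 and 11.0 CPM against 8.91 and 4.31 CPM (-0.91, SE 0.53). It was at -1.535 with YW-LF replicate 1 left out and at -0.49 with YW-LF replicate 2 left out.

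Several other targets were high in YW-LF replicate 1 and at or below the controls in YW-LF replicate 2. NDRG1, a stress and hypoxia marker, was at 356 and 410 CPM in DMSO and at 1164 and 341 CPM after YW-LF (0.98, SE 0.65, adjusted p = 0.429 in edgeR). Leaving out YW-LF replicate 2 gave 1.59, and leaving out the other treated library gave -0.17. KDM3A, a histone demethylase, was at 94.5 and 89 CPM in DMSO against 139.6 and 46.3 CPM. P4HA2, a subunit of collagen prolyl hydroxylase, was at 35.3 and 42.8 CPM against 73.9 and 22.1 CPM. ANKRD37 (6.68 and 5.20 CPM against 10.3 and 3.17 CPM) and P4HA1 (98.8 and 87.7 CPM against 131 and 74.2 CPM) had the same order. ANGPTL4, a secreted lipase inhibitor, was at 3.13 and 5.08 CPM in DMSO and at 3.14 and 1.42 CPM after YW-LF. It was below both controls in the second treated library only (-0.84, SE 0.68, adjusted p = 0.513 in edgeR). Leaving out YW-LF replicate 1 gave -1.525 and leaving out YW-LF replicate 2 gave -0.39. The mitophagy receptor gene BNIP3L overlapped too (96.0 and 133 CPM against 121 and 112 CPM). The vasodilator peptide gene ADM had the opposite order, at 30.9 and 23.2 CPM in DMSO and at 22.7 and 35.9 CPM after YW-LF. It was below both controls in the first treated library and above both in the second.

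Set against each other library by library, enzymes and targets exchanged places. The median enzyme lay below the DMSO mean on the log2 scale in YW-LF replicate 1 (deviation -0.67), and in YW-LF replicate 2 it lay at 0.15. For the median target the deviations were 0.10 and -0.84. The median over all genes was 0.03 and -0.03. In YW-LF replicate 1, 15 of 17 enzymes (88.2%) were below the DMSO mean, against 48.9% of all genes, and 5 of 11 targets were. In YW-LF replicate 2, 8 of 17 enzymes were below it, and 10 of 11 targets (90.9%, against 50.9% of all genes). Targets minus enzymes was therefore 0.77 in the first YW-LF library and -0.99 in the second, beside -0.07 and 0.07 in DMSO. With 1 library each, these values have no replicate check and no test was made. The difference of the group medians over the fit was 0.14, which describes neither treated library.

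**Figure D3:**
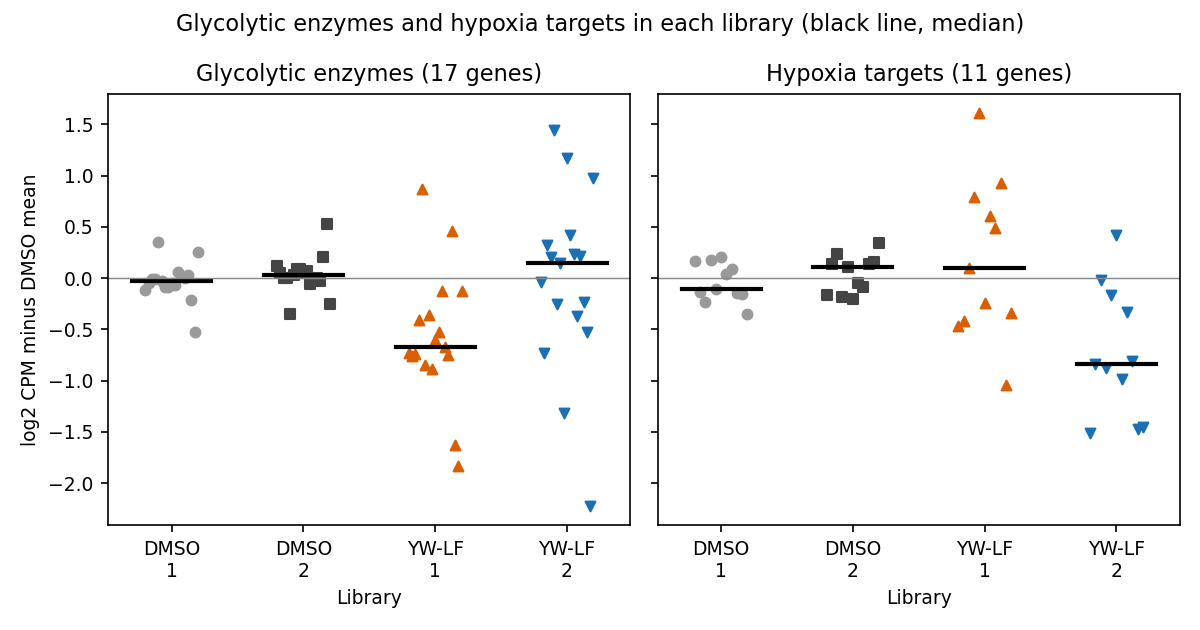
Deviation of each of 17 glycolytic enzymes (left) and 11 hypoxia targets (right) from the DMSO mean, in log2 CPM (y axis), by library (x axis), with the median as a black line. The enzyme median is -0.67 and 0.15 in YW-LF replicates 1 and 2, and the target median 0.10 and -0.84.

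The contrast was 0.77 and -0.99 with library size only as with TMM, since scaling shifts enzymes and targets alike. In YW-LF replicate 2 the 2760 genes of shortest exon length had a median deviation of 0.43 and the 2759 longest -0.31, against 0.13 and -0.07 in YW-LF replicate 1. Enzymes and targets had nearly equal median exon lengths, 5276 and 5325 bases, but their median GC contents differed, 53.1% and 49.1%. With a correction for length and GC content the contrast was 0.54 and -0.84, the target median in YW-LF replicate 1 went from 0.10 to -0.11, and the difference of the group medians over the fit went from 0.14 to 0.01. Without the mitochondrially encoded genes it was again 0.77 and -0.99.

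**Figure D4:**
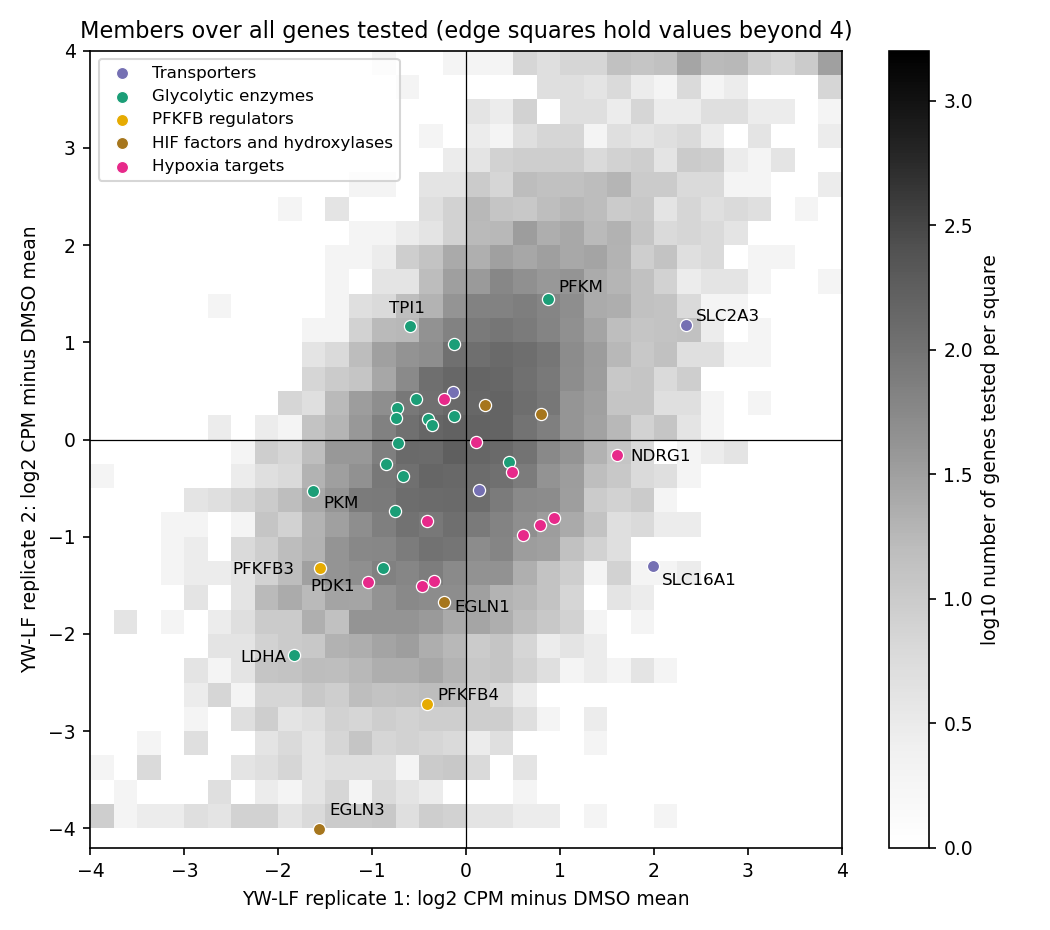
Deviation from the DMSO mean (log2 CPM) in YW-LF replicate 1 (x axis) and YW-LF replicate 2 (y axis) for the members, coloured by role, over the number of all genes tested per square (grey, log10). Both axes share the DMSO libraries. Most enzymes lie left of 0 and near or above the horizontal line, and most targets lie below it.

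LDHA, PFKFB3, PDK1 and EGLN3 were the 4 members lower at an unadjusted p under 0.05, and their promoters are shown because they lay lower together, as did 9 further members. Sequences are the 250 bases before a start site, from RefSeq in GRCh38.p14, and 35 of the 39 members had at least 1 such window. The core of the hypoxia response element was searched as ACGTG and GCGTG on both strands and is printed in capitals. CACGTG, also the E-box bound by MYC, holds it on both strands and counts as 2. Where a gene has several windows, the one with most matches is printed.
LDHA, chr11:18394313-18394562, plus strand: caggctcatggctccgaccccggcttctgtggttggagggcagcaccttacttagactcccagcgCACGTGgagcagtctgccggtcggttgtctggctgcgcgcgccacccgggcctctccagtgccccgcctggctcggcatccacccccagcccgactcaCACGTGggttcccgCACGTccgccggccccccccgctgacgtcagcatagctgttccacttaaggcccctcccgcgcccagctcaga
PFKFB3, chr10:6202682-6202931, plus strand: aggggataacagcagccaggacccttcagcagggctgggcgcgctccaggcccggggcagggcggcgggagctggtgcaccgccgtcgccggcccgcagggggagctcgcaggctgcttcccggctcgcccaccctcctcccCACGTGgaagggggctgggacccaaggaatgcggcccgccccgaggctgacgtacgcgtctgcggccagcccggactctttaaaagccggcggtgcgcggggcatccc
PDK1, chr2:172555840-172556089, plus strand: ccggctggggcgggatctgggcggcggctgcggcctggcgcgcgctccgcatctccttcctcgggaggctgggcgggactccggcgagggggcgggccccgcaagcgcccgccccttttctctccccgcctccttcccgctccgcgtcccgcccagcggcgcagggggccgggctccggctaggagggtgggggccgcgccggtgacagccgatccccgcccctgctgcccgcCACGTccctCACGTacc
EGLN3, chr14:33951075-33951324, minus strand: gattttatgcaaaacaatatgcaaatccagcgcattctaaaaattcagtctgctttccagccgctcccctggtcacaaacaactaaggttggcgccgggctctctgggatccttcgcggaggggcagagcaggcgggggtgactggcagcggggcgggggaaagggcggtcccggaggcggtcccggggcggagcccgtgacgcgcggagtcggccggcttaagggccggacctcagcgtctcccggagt
LDHA had 5 matches, PFKFB3 and PDK1 2 each, and EGLN3 0 in this window. Over all members, 38 of 63 windows (60.3%) held at least 1 match, against 43.2% of all 35116 windows. Among enzymes it was 19 of 37 windows (51.4%) and among targets 10 of 12 (83.3%). Counted by gene, 14 of 17 enzymes (82.4%) and 9 of 10 targets (90%) had a match in at least 1 window. The share over all genes was 47.4%, and genes differ in their number of windows. These are matches to 5 letters and not measured binding sites.

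The rest of the pathways, in lists taken whole, gave no member past edgeR's adjusted threshold. Of 28 other hypoxia targets, 9 lay above and 6 below DMSO in both YW-LF libraries, with a median of 0.26. These shares were 32.1% and 21.4%, against 28% and 27.8% of all genes tested. At an unadjusted p under 0.05 in edgeR, 3 were higher and 3 lower (10.7% each, against 11.5% and 9.01% of all genes). STC1 (stanniocalcin 1), a secreted glycoprotein, was at 34.9 and 52.2 CPM in DMSO and 541 and 420.5 CPM in YW-LF (3.47, SE 0.47; adjusted p = 0.117 in edgeR and 7.44e-11 in DESeq2). Besides DESeq2, STC1 passed in edgeR with no count filter or with replicate as a block, and in limma-voom with quality weights, and its adjusted p ranged from 7.44e-11 to 0.137 over 11 alternatives. STC2 was at 1.39 and 1.58 CPM against 5.65 and 14.1 CPM (2.73, SE 0.66), and the cyclin G2 gene CCNG2 at 50.7 and 39.5 CPM against 191.6 and 92.2 CPM (1.65, SE 0.47). In this list too the treated libraries diverged. In the first, 9 of 28 genes (32.1%) were below the DMSO mean, and in the second 17 (60.7%), against 48.9% and 50.9% of all genes.

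Of 12 other genes of HIF control, 5 lay above DMSO in both and 2 below (41.7% and 16.7%, against 28% and 27.8% of all genes tested). ARNT2, a partner subunit of HIF, was at -1.67 (SE 0.56), CITED2, which competes with HIF for its coactivator, at -1.30 (SE 0.44) and ELOC, a subunit of the VHL ligase, at 1.43 (SE 0.52), all in log2 fold change. Of 7 pentose phosphate genes, 2 lay above (28.6%) and 1 below (14.3%). That one was PGD, the second dehydrogenase of the route (-1.19, SE 0.38), while RPIA was at 0.94 (SE 0.37) and TALDO1 at 0.60 (SE 0.45). Of 10 genes of pyruvate dehydrogenase and its regulators, 0 lay above and 3 below (30%). Those below were DLAT (-0.79, SE 0.36), PDK2 (-0.85, SE 0.41) and PDHB (-0.61, SE 0.37). Of 13 further glycolysis genes tested, 3 lay above (23.1%) and 4 below (30.8%). Among those below were PGM2 (-0.90, SE 0.37) and PGM1 (-0.70, SE 0.34), the phosphoglucomutases. In bulk samples such as these, fewer cells of a kind and less RNA per cell cannot be told apart.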

How the data were processed

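RNA was sequenced from 4 libraries (1.4 µg total RNA each, mRNA kit, per the labels' protocols). The authors deposited raw whole-number counts for each gene. No label or header names an aligner or counter. Mouse builds (GRCm38, mm10) are listed in the submitters' processing notes, yet all 20263 identifiers are human. Symbols matched 20148 of them. A second deposited table of counts repeated the DMSO values (40526 of 40526 equal), and 2 columns matching no label were not used.

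Genes passing filterByExpr (13816) were tested with edgeR 4.0.16 in R 4.3.3 (TMM, quasi-likelihood F-test, no covariates, Benjamini-Hochberg over all genes). SE is the log2 fold change over the square root of F. Log2 CPM used a prior count of 2. The tests were first run on simulated counts. Coordinates and exon lengths (union of exons) are from GENCODE 29. DESeq2 1.42.0 and limma 3.58.1 (voom) were alternatives. Counting strand is not stated, so antisense overlap cannot be separated. The 39 members and the lists were chosen with earlier results of these data known. Members given in full are the lowest p of each role (4 enzymes, 6 targets) and all transporters, regulators and HIF genes, plus GAPDH, LDHA, HK2, CA9 and PDK1. Levels of other enzymes and targets, and of EGLN2 and HIF1AN, were added after their values were seen. Of each other list the 3 of lowest p are named, except 1 gene that is not reported here.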

Additional observations from a re-analysis of the deposited data

How the results depend on the processing

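Over the 11 alternatives with all libraries, 30 of the 38 members kept the sign of their log2 fold change, and 19 kept it also in all 4 fits without 1 library. Calls over all genes went from 0 to 155 higher and 120 lower without a count filter, 812 and 618 with DESeq2, 175 and 56 in limma-voom with quality weights, and 186 and 145 with a replicate block. They ranged from 46 to 2963 higher and 16 to 2919 lower without 1 library, where the pair that remains sets the spread. Members called were 1 higher and 3 lower with DESeq2, 0 under every other alternative with all libraries, and 0 to 4 higher and 0 to 12 lower without 1 library. At an unadjusted p under 0.05 the latter fits gave 0 to 8 higher and 0 to 14 lower, against 4.32% to 25.3% and 2.55% to 26.2% of all genes, and 5 to 15 members lay above and 14 to 24 below all remaining DMSO libraries, against 33.9% to 44.3% and 33.2% to 45.3% of all genes. Without DMSO replicate 2 no member had an unadjusted p under 0.05. Without 1 library the median log2 fold change was -2.04 to -1.01 for the PFKFB genes, -0.84 to 0.13 for targets and -0.98 to 0.75 for targets minus enzymes. The median of all genes moved from 0.06 to 0.16 with library size only.

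Signs turned with the length and GC correction for GPI (0.13), PFKL (0.16), GAPDH (-0.044), BNIP3L (-0.089), ANKRD37 (-0.025), ADM (-0.015) and P4HA1 (-0.035), and with the replicate block for GAPDH (-0.054), ANKRD37 (-0.04) and KDM3A (-0.19). Upper quartile scaling turned GAPDH (-0.041) and BNIP3L (-0.003), limma-voom GAPDH (-0.02) and KDM3A (-0.19), and limma-voom with quality weights GAPDH (-0.038) and KDM3A (-0.17). Without 1 library, signs turned for SLC2A1 (-0.16 to 0.48), SLC16A1 (-1.35 to 1.99), SLC16A3 (-0.52 to 0.13), GPI (-0.75 to 0.32), PFKL (-0.43 to 0.20), ALDOA (-0.37 to 0.15), TPI1 (-0.61 to 1.17), GAPDH (-0.54 to 0.42), PGK1 (-0.14 to 0.23), ENO1 (-0.76 to 0.22), ENO2 (-0.24 to 0.45), LDHB (-0.17 to 0.95), BNIP3L (-0.18 to 0.26), ANKRD37 (-0.91 to 0.77), NDRG1 (-0.17 to 1.59), ADM (-0.26 to 0.40), KDM3A (-0.99 to 0.59), P4HA1 (-0.33 to 0.48) and P4HA2 (-0.82 to 0.91). The cause was not tested. Same-numbered replicates deviated from their group means with a correlation of 0.037 over genes, so the numbers were not taken as pairs. The length and GC correction was added after seeing the data. EGLN3 rests on 13 counts in 1 library and CA9 on at most 12.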
